A study of Mus musculus with 9 samples.

Results

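This account covers 28 mouse genes of cholesterol synthesis and of the SREBP2 pathway that controls it, chosen by name, among 16428 genes measured by RNA sequencing. The choice was made with earlier results of these data known. All 28 were found, 1 row each, and all passed the filter on low values (a mean of at least 10 over the 9 libraries). The list does not hold every gene of the pathway. The 9 libraries came from mouse embryonic fibroblasts, connective tissue cells grown from embryos, all of genotype CARM1f/f ER-Cre and all grown for 6 days. In the CARM1i group (n = 3) the cells received 1 uM TP-064, an inhibitor of the arginine methyltransferase CARM1. In the KO group (n = 3) they received 2 uM 4-OHT, the tamoxifen derivative that activates the Cre fusion and so deletes the floxed part of Carm1. In the WT group (n = 3) they carried the same floxed alleles and the same Cre and were labelled as untreated. The promoter that drives the Cre is not given in the sources used here. No group is labelled as vehicle and none received 4-OHT without floxed alleles, so effects of the deletion and of 4-OHT itself cannot be told apart, nor can those of TP-064 and of any vehicle. Nothing in the labels says that replicates were separate cultures, so the p-values reflect how far these libraries vary, and that variation may be technical.

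Cells build cholesterol from acetyl-CoA through the mevalonate pathway, which ends in farnesyl diphosphate, then through squalene and lanosterol, and last through a series of reductions and demethylations of lanosterol. Most of the enzymes are transcribed under SREBP2, the product of Srebf2, which is held in the membrane of the endoplasmic reticulum with its escort SCAP. When the membrane is poor in sterol, SCAP carries SREBP2 to the Golgi, where the proteases encoded by Mbtps1 and Mbtps2 release the active factor. When sterol is plentiful, INSIG proteins hold SCAP back, and Insig1 is itself a target of the pathway.

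Each library held between 28657018 and 35842771 recovered reads. Carm1 itself measured 1112, 1072 and 986 normalized counts in CARM1i libraries 1 to 3, 794, 711 and 769.8 in KO libraries, and 1079, 1143 and 1091 in WT libraries. It fell by 0.54 ± 0.06 on the log2 scale in KO against WT (limma, adjusted p = 5.493e-07), but the counts cover the whole gene and do not check the deleted part. Of 8 fibroblast markers, 7 were tested and 6 of those fell in KO, among them Col1a1 and Pdgfra, while Thy1 rose. In CARM1i 3 of the 7 fell and Thy1 rose. The summed level of the 8 markers was 218446 to 242159 in CARM1i, 186216 to 198181 in KO and 248994 to 258835 in WT. Of 7 macrophage markers 4 had a row, with a summed level of 294 to 323 in CARM1i, 292 to 334 in KO and 253 to 318 in WT, and Ptprc, Adgre1 and Itgam had no row among those analysed here. The summed level of 5 endothelial markers was 435 to 454 in CARM1i, 463 to 525 in KO and 390 to 446 in WT. Of 5 epithelial markers only Krt18 had a row, at 32.4 to 43.8 in CARM1i, 91.9 to 126 in KO and 23.3 to 48 in WT. The 10 mitosis genes, such as Mki67 and Top2a, fell in both groups, with summed levels of 25344 to 27481 in CARM1i, 15424 to 15969 in KO and 37861 to 39136 in WT. The part of these shifts in the changes of the members was not tested. In such bulk samples, fewer cells of a type and less RNA per cell cannot be told apart.

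SREBP2 binds short sterol regulatory elements in promoters and usually acts beside the general factors NF-Y and SP1, which is why the promoters of some members are shown. RefSeq promoter windows (GRCm38.p6) matched 24 of the 28 members. The 250 bases before each annotated start were searched on both strands for TCACNCCAC, a form of the sterol regulatory element, for CCAAT, the NF-Y box, and for GGGCGG, the SP1 box; no match of one motif overlapped a match of another in the printed sequences. The first was found in 1 member, Hmgcs1, at position -137 from the start. That is 1 of 30 member windows, against 1.05% of all 32851 windows and 1.0% of those of tested genes. Only this form was searched, so members without a match may hold other forms of the element. CCAAT was in 20 of 30 member windows, against 33.8% of all windows and 35.7% of the 13139 windows of genes tested. GGGCGG was in 23 of 30 member windows, against 32.7% of all windows and 56.8% of those of tested genes. The upstream bases below are those of the 3 members with the largest log2 fold change in CARM1i against WT (Tm7sf2, Mvd and Insig1), of the 2 with the smallest (Mbtps1 and Lbr), and of Hmgcs1, added after the search because it holds the sterol element. They run 5′ to 3′ on the gene's strand, with motif matches of either strand in capitals. They lie at chr13:119690101-119690350 (plus strand), chr19:6067851-6068100 (minus), chr8:122443423-122443672 (minus), chr5:28071162-28071411 (plus), chr8:119558762-119559011 (minus) and chr1:181842402-181842651 (minus). RefSeq starts differ from the GENCODE gene ends for some members. The bases printed for Tm7sf2 and Lbr lie inside their GENCODE spans, which begin at 6068373 and 181843046 on the minus strand. Those of Tm7sf2 also lie inside the span of Vps51 (6067842 to 6077231). The last bases printed for Insig1 lie past its GENCODE start at 28071363.
Hmgcs1: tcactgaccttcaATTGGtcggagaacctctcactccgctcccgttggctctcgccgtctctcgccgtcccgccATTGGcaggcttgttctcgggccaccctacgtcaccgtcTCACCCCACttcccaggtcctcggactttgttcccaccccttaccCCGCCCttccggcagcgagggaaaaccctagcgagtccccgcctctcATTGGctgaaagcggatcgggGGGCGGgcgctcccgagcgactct
Tm7sf2: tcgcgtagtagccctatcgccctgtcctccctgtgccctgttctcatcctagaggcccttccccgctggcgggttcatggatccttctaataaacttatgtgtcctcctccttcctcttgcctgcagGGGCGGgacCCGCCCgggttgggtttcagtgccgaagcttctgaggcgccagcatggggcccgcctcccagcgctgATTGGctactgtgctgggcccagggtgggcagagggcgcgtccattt
Mvd: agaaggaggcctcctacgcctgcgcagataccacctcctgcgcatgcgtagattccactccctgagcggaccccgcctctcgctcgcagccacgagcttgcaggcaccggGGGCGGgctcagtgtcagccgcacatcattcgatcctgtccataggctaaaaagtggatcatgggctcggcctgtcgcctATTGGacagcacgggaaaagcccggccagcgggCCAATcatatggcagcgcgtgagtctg
Insig1: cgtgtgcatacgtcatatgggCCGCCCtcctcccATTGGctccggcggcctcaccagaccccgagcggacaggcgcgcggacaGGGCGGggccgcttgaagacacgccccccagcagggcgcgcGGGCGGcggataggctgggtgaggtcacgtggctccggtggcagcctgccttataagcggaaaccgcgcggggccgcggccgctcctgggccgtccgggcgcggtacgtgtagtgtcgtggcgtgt
Mbtps1: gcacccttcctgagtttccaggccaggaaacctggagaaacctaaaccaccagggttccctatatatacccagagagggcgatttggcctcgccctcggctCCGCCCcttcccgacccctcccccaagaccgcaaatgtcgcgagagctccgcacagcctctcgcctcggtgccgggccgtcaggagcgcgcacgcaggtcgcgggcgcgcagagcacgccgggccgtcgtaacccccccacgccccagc
Lbr: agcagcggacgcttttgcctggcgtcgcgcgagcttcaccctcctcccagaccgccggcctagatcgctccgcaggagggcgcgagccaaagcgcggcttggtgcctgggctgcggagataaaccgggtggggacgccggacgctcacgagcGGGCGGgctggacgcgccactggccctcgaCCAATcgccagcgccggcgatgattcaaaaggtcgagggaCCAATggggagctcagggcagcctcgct
Hmgcs1 carries a sterol element between NF-Y boxes that lie at -237, -176 and -45. Lbr, which fell in KO, has NF-Y boxes at -68 and -28 and an SP1 box at -98. Mvd, which rose, has NF-Y boxes at -60 and -27 and an SP1 box at -140. Mbtps1 has an SP1 box and no CCAAT. A match is a description of letters and shows no binding.

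Sterol synthesis genes were higher after both treatments along nearly the whole pathway. In CARM1i against WT, 22 of the 28 members rose and none fell under limma (adjusted p under 0.05 over all 14560 genes tested), where 10.5% of all genes rose, 8.59% fell and 19.1% passed in either direction. In KO against WT, 23 rose and 1, Lbr, fell, where 21.4% of all genes rose, 20.5% fell and 41.9% passed in either direction. The median log2 fold change of the members was 0.53 in CARM1i and 0.43 in KO, against a median over all genes of -0.0047 in CARM1i and -0.0043 in KO. Of the 28, 18 lay above the 95th percentile of all genes in CARM1i (0.40 on the log2 scale) and 8 in KO (0.62). The CARM1i and WT libraries did not overlap for 26 members, 25 higher and 1 lower, where 16.7% of all genes were higher without overlap and 16.7% lower. The KO and WT libraries did not overlap for 25, of which 24 were higher and 1 lower, where 26.7% of all genes were higher without overlap and 25.9% lower. Both comparisons use the same 3 WT libraries. Because the list was chosen with earlier results of these data known, its shares beside those of all genes are a description. The mean log2 level of the members, relative to WT, was 0.53, 0.48 and 0.43 in CARM1i libraries 1 to 3 and 0.38, 0.41 and 0.42 in KO libraries, while single WT libraries stood at -0.03, -0.04 and 0.07. WT library 3 was thus the highest of its group and CARM1i library 3 the lowest of its group. Without CARM1i replicate 3, 22 members passed in CARM1i against WT, and without WT replicate 3 also 22.

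**Figure D1:**
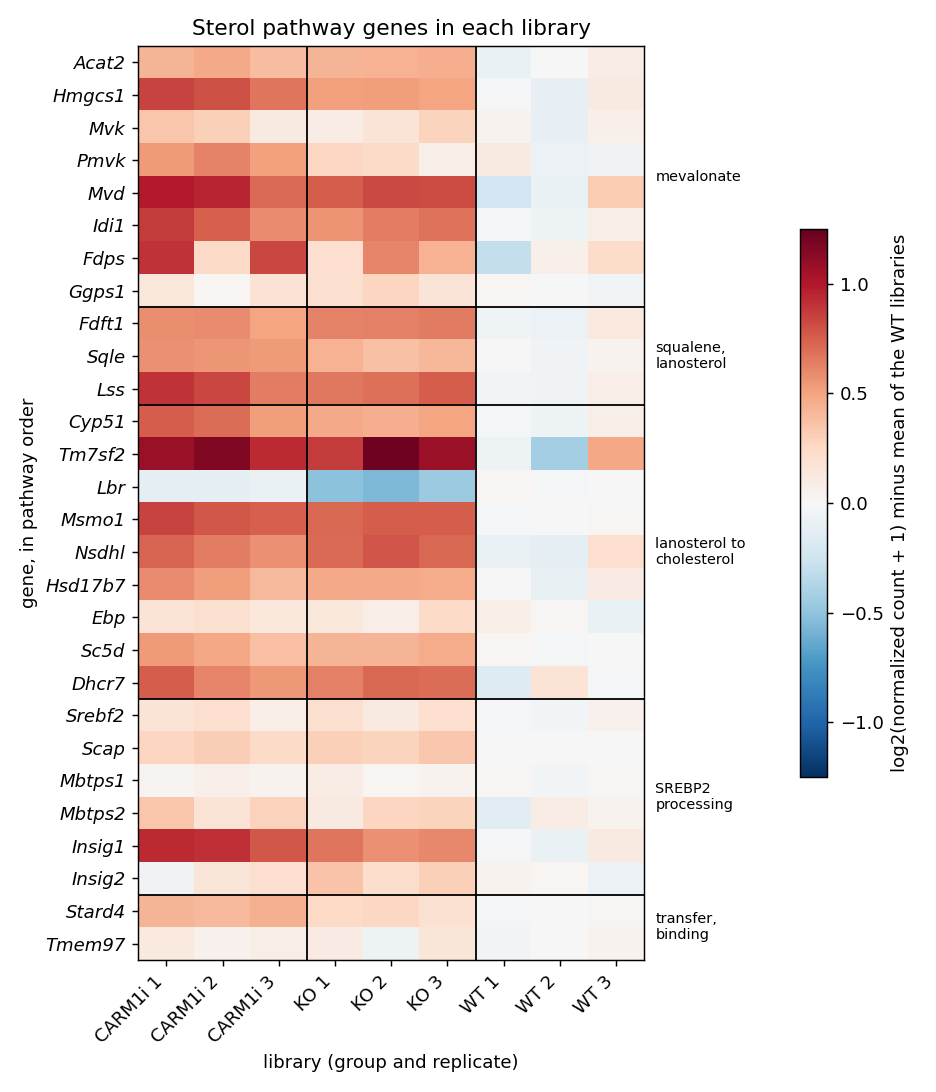
Level of each member in each of the 9 libraries, as log2(normalized count + 1) minus the mean of the 3 WT libraries (colour), with CARM1i, KO and WT libraries from left to right and genes in pathway order from top to bottom. All rows but Lbr average above WT in the CARM1i and KO columns, and Tm7sf2 has the largest difference, at about 1.05 in both groups.

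**Figure D2:**
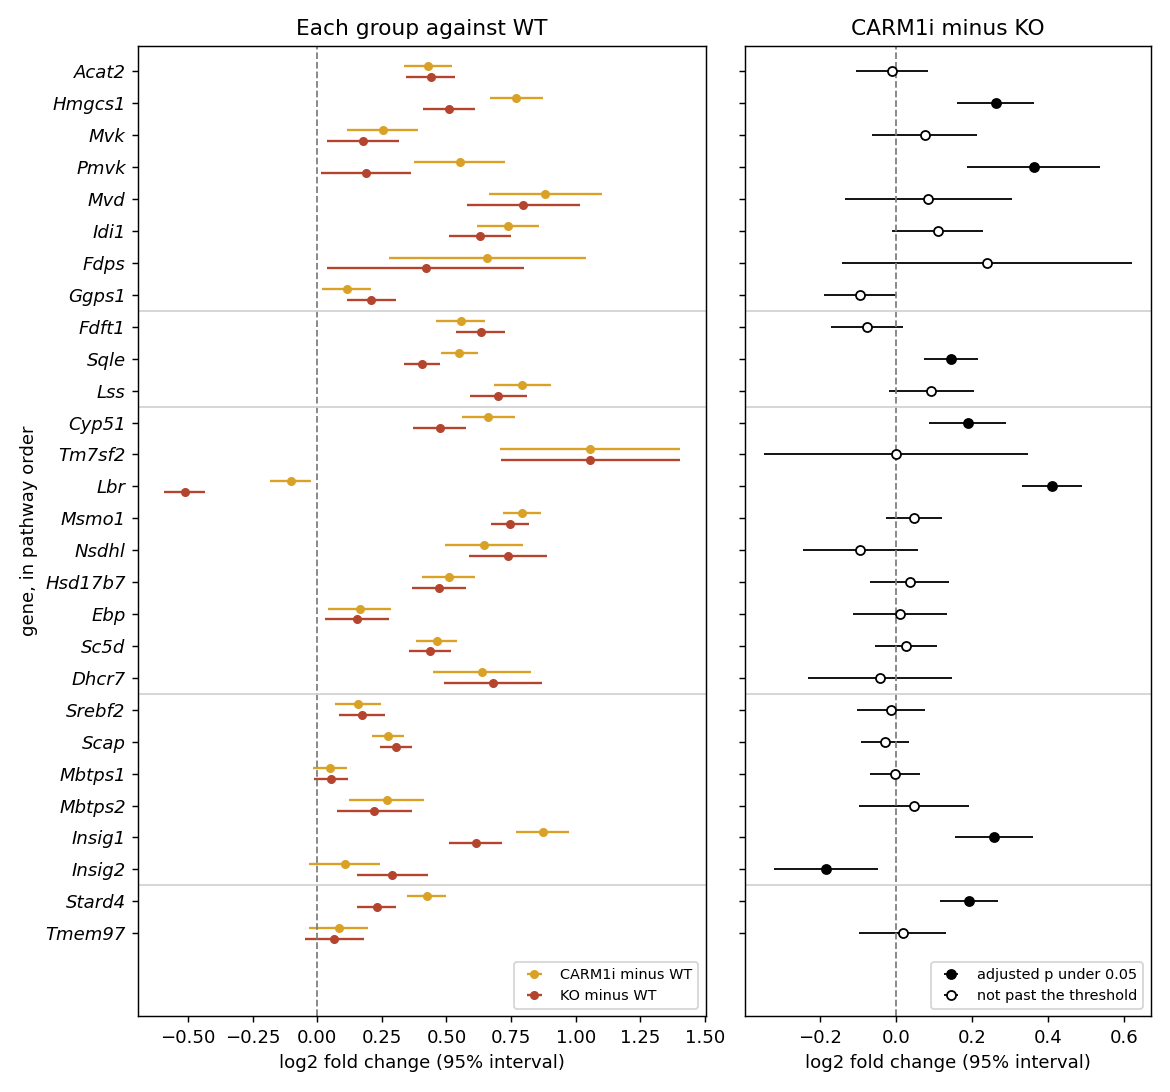
Log2 fold change of each member with its 95% interval (bars) in CARM1i minus WT and KO minus WT (left) and CARM1i minus KO (right), n = 3 libraries a group. Hmgcs1, Pmvk, Sqle, Cyp51, Lbr, Insig1 and Stard4 lie above 0 on the right past the threshold, and Insig2 below it.

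In the mevalonate stage, 7 of 8 enzyme genes rose in CARM1i and 6 of 8 in KO. Over all genes tested, 10.5% rose in CARM1i and 21.4% in KO. Hmgcs1, which condenses acetyl-CoA with acetoacetyl-CoA into HMG-CoA (ENSMUSG00000093930.2; mm10, chromosome 13, 119690379 to 119708260), measured 9767, 9392 and 8649 normalized counts in CARM1i libraries, 7738, 7773 and 7658 in KO libraries and 5377, 5058 and 5872 in WT libraries. The 3 groups did not overlap, with CARM1i highest and WT lowest. Its log2 fold change was 0.77 ± 0.05 (SE) in CARM1i against WT (limma, adjusted p = 7.555e-09) and 0.51 ± 0.05 in KO against WT (adjusted p = 1.08e-07). Mvd, the decarboxylase that makes isopentenyl diphosphate, had the largest rise of this stage in both comparisons. It measured 1111, 1076 and 912 in CARM1i, 940.1, 987 and 983 in KO, and 472, 527 and 697 in WT. That is 1.84-fold in CARM1i (log2 0.88 ± 0.10, adjusted p = 9.082e-06) and 1.74-fold in KO (0.80 ± 0.10, adjusted p = 6.021e-06), with WT library 3 well above the other WT libraries. Idi1, which isomerises isopentenyl diphosphate, averaged 3392 ± 324 (SD, n = 3) in CARM1i, 3136 ± 131 in KO and 2028 ± 98.8 in WT, and rose by 0.74 in CARM1i and 0.63 in KO on the log2 scale.

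The thiolase that starts the pathway and the kinases moved less. Acat2, the cytosolic thiolase, rose by 0.43 ± 0.04 in CARM1i (limma, adjusted p = 2.537e-06) and 0.44 ± 0.04 in KO (adjusted p = 2.73e-07). Mvk, mevalonate kinase, rose by 0.25 ± 0.07 in CARM1i (adjusted p = 0.01059) and by 0.18 ± 0.07 in KO (adjusted p = 0.03754). Its call ended without CARM1i replicate 1 or WT replicate 2 in CARM1i, and without KO replicate 2, KO replicate 3 or WT replicate 2 in KO. Without the trend it ended in CARM1i (adjusted p = 0.0841) and in KO (0.1227), and the KO call also ended on rescaling to a common total (0.06135) and with the replicate block (0.05804). Pmvk, the next kinase, measured 438, 466 and 433 in CARM1i, 364, 358 and 319.6 in KO, and 329, 289 and 295 in WT. It rose in CARM1i (0.55 ± 0.08, adjusted p = 0.0001122), where the groups did not overlap. KO and WT overlapped for Pmvk, and KO did not pass against WT (0.19 ± 0.08, adjusted p = 0.07644), although it did without KO replicate 3 or WT replicate 1 and with quantile normalization (adjusted p = 0.02141).

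The stage ends in 2 synthases. Fdps, which makes farnesyl diphosphate, was counted at a low level, with 191, 120.1 and 183 in CARM1i, 118, 156 and 138 in KO, and 82.7, 107 and 119.8 in WT. It passed in CARM1i (0.66 ± 0.18, limma, adjusted p = 0.01531), though not without CARM1i replicate 1, WT replicate 1 or the trend (adjusted p = 0.09009). It did not pass in KO (0.42 ± 0.18, adjusted p = 0.07269), though it did there without KO replicate 1, CARM1i replicate 2 or WT replicate 3 and in a fit of only the compared groups (adjusted p = 0.04078). Of its 50-base words, 26.2% also occur in other annotated genes, and 1124 of its exon bases overlap other genes on its strand, so its counts are uncertain. Ggps1, which extends farnesyl to geranylgeranyl diphosphate for the modification of proteins and so leads away from sterols, measured 2262, 2087 and 2329.7 in CARM1i, 2352, 2478 and 2298 in KO, and 2088, 2064 and 2011 in WT. It rose in KO (0.21 ± 0.04, adjusted p = 0.0009889) and did not pass in CARM1i (0.11 ± 0.04, adjusted p = 0.08682), although it did without CARM1i replicate 2.

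All 3 genes from farnesyl diphosphate to lanosterol rose in both groups, where 10.5% of all genes rose in CARM1i and 21.4% in KO. Fdft1, squalene synthase, the step that commits carbon to sterols, measured 4553, 4558 and 4281 in CARM1i, 4674, 4694 and 4751 in KO, and 2926, 2893 and 3305 in WT. It rose by 0.56 ± 0.04 in CARM1i (limma, adjusted p = 1.69e-07) and by 0.63 ± 0.04 in KO (adjusted p = 2.543e-09). Sqle, squalene epoxidase, measured 4744, 4676 and 4638 in CARM1i, 4311, 4136 and 4269.6 in KO, and 3197, 3113 and 3291 in WT, so that the 3 groups were apart with CARM1i highest. Its rises were 0.55 ± 0.03 in CARM1i (adjusted p = 5.81e-09) and 0.41 ± 0.03 in KO (adjusted p = 2.003e-08). Lss, which folds the epoxide into lanosterol, rose 1.73-fold in CARM1i and 1.63-fold in KO, with means of 6947 ± 639 in CARM1i, 6498 ± 229 in KO and 3998 ± 196 in WT.

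From lanosterol to cholesterol, 7 of 9 genes rose in CARM1i and 8 of 9 in KO, against 10.5% and 21.4% of all genes. Cyp51, the lanosterol demethylase, measured 9459, 9064 and 8034 in CARM1i, 7759, 7650.2 and 7846 in KO, and 5526, 5345 and 5885 in WT, and rose by 0.66 ± 0.05 in CARM1i and 0.47 ± 0.05 in KO. The methyl groups left on the ring are then removed by the products of Msmo1, Nsdhl and Hsd17b7. Msmo1 (ENSMUSG00000031604.10; chromosome 8, 64718139 to 64733792) had the smallest adjusted p of the list in both comparisons with WT. It measured 4236, 4045 and 3965 in CARM1i, 3876, 3986 and 3991 in KO, and 2325, 2361 and 2383 in WT, so all 6 treated libraries lay far above the WT libraries (0.79 ± 0.04, limma, adjusted p = 1.252e-10 in CARM1i; 0.75 ± 0.04, adjusted p = 1.22e-11 in KO). Nsdhl rose by 0.64 in CARM1i and 0.74 in KO, and Hsd17b7 by 0.51 in CARM1i and 0.47 in KO.

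The last steps rose unevenly. Sc5d, the desaturase that makes the ring double bond of the last precursor, rose by 0.46 ± 0.04 in CARM1i and 0.44 ± 0.04 in KO. Dhcr7, which reduces that precursor to cholesterol, measured 463, 418 and 399 in CARM1i, 423, 451 and 443 in KO, and 245, 308 and 271 in WT, or 0.64 ± 0.09 above WT in CARM1i (limma, adjusted p = 6.146e-05) and 0.68 ± 0.09 in KO (adjusted p = 7.428e-06). Ebp, the sterol isomerase, moved little. It measured 866, 882 and 841 in CARM1i, 848, 815 and 908 in KO, and 808, 776 and 727 in WT. It passed in KO (0.15 ± 0.06, adjusted p = 0.04258), not in CARM1i (0.16 ± 0.06, adjusted p = 0.05819), although the estimates are nearly equal. Its KO call ended without KO replicate 1 or 3, CARM1i replicate 1, or WT replicate 2 or 3, and CARM1i passed without WT replicate 1. The KO call also ended with DESeq2 (adjusted p = 0.07618), limma without the trend (0.06413), rescaling to a common total (0.06752) and the replicate block (0.06197), and CARM1i also passed with quantile normalization (0.04012).

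The reduction that follows Cyp51 can be made by either of 2 related enzymes, and their genes went apart. Tm7sf2 (ENSMUSG00000024799.15; chromosome 19, 6062821 to 6068373) encodes a reductase of the endoplasmic reticulum. It measured 295, 311 and 267 in CARM1i, 256, 325 and 295 in KO, and 134, 104 and 195 in WT. It rose 2.08-fold in both groups, by 1.05 ± 0.16 in CARM1i (limma, adjusted p = 0.0001554) and 1.06 ± 0.16 in KO (adjusted p = 4.444e-05), the largest change of the list, from a low level. Lbr (ENSMUSG00000004880.11; chromosome 1, 181815335 to 181843046) encodes the lamin B receptor, which has the same reductase activity and also tethers chromatin to the nuclear envelope. It measured 2404, 2411 and 2448 in CARM1i, 1825, 1760.1 and 1882 in KO, and 2648, 2552 and 2598 in WT. KO fell by 0.51 ± 0.04 on the log2 scale (adjusted p = 4.352e-09). The CARM1i libraries also lay below all WT libraries but did not pass (-0.10 ± 0.04, adjusted p = 0.06904); they passed with quantile normalization (adjusted p = 0.02789) and when rescaled to a common total (adjusted p = 0.03113). The mitosis genes moved in the same order, with a median log2 fold change of -0.53 in CARM1i and -1.38 in KO, and their part in the change of Lbr was not tested. Tm7sf2 shares 532 exon bases with Vps51 on the same strand, and Vps51 averaged 86 ± 2.34 in CARM1i, 84 ± 13.9 in KO and 81.1 ± 4.96 in WT.

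**Figure D3:**
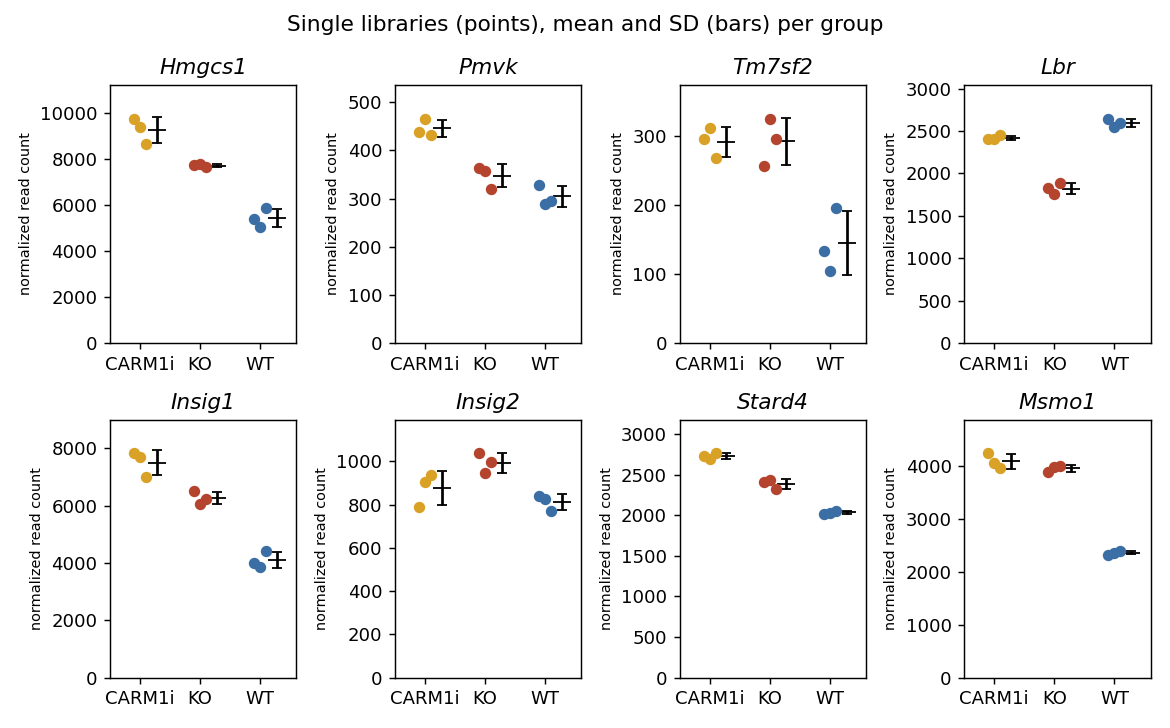
Normalized read count of 8 members in each library (points) with the mean and SD of each group (bars), n = 3, groups CARM1i, KO and WT from left to right. Hmgcs1, Pmvk, Insig1 and Stard4 are highest in CARM1i, Insig2 is highest on average in KO, Tm7sf2 and Msmo1 are alike in both treated groups, and Lbr is lowest in KO.

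Of the 6 genes that encode SREBP2 and its processing machinery, 4 rose in CARM1i and 5 in KO. Among all genes 10.5% rose in CARM1i and 21.4% in KO. Medians over the 6 were 0.21 in CARM1i and 0.26 in KO. Srebf2 measured 2919, 2997 and 2742 in CARM1i, 2967, 2787 and 2989.5 in KO, and 2549, 2528 and 2682 in WT. Its rise was 1.12-fold in CARM1i (0.16 ± 0.04, limma, adjusted p = 0.01334), lost without CARM1i replicate 2, WT replicate 1 or 2 or the trend (adjusted p = 0.07947), and 1.13-fold in KO (0.17 ± 0.04, adjusted p = 0.003043). Scap measured 16464, 16943 and 16165 in CARM1i, 16767, 16514 and 17299 in KO, and 13681, 13597 and 13691 in WT, with rises of 0.27 ± 0.03 in CARM1i (adjusted p = 3.355e-06) and 0.30 ± 0.03 in KO (adjusted p = 1.563e-07). The Golgi proteases differed. Mbtps1 stayed within 5702 to 5832 in CARM1i, 5665 to 5918 in KO and 5451 to 5633 in WT, and did not pass (0.05 ± 0.03 in both, intervals -0.02 to 0.11 in CARM1i and -0.01 to 0.12 in KO). Mbtps2 rose by 0.27 ± 0.07 in CARM1i (adjusted p = 0.009704) and 0.22 ± 0.07 in KO (adjusted p = 0.01499). The Mbtps2 calls ended without CARM1i replicate 1 or WT replicate 1 in CARM1i and without KO replicate 2 or 3 or WT replicate 1 in KO. Both also ended without the trend (adjusted p = 0.06829 in CARM1i and 0.06118 in KO). Of its exon bases, 2867 overlap other genes on its strand.

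The INSIG genes differed in size of change. Insig1 (ENSMUSG00000045294.11; chromosome 5, 28071363 to 28078662) measured 7828, 7687 and 6997 in CARM1i, 6506, 6071 and 6229 in KO, and 4012, 3869 and 4421 in WT, with no overlap between any groups. It rose 1.83-fold in CARM1i (0.87 ± 0.05, limma, adjusted p = 2.54e-09) and 1.53-fold in KO (0.61 ± 0.05, adjusted p = 1.091e-08). Insig2 (ENSMUSG00000003721.14; chromosome 1, 121304353 to 121332589), which performs the same retention but is transcribed from its own promoters, measured 789.6, 903 and 937 in CARM1i, 1037, 947 and 999 in KO, and 838, 827 and 772 in WT. It rose in KO (0.29 ± 0.06, adjusted p = 0.001353), where no library overlapped WT, and overlapped WT in CARM1i (0.11 ± 0.06, adjusted p = 0.2856, interval -0.03 to 0.24).

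Of the 2 genes of sterol transfer and binding, 1 rose in both groups, where 10.5% of all genes rose in CARM1i and 21.4% in KO. Stard4 (ENSMUSG00000024378.9; chromosome 18, 33199355 to 33213862), a soluble protein that carries sterol between membranes, measured 2730.3, 2696 and 2762 in CARM1i, 2412, 2437 and 2319.9 in KO, and 2022, 2027 and 2058 in WT. The groups were apart, with rises of 0.42 ± 0.04 in CARM1i (limma, adjusted p = 2.714e-07) and 0.23 ± 0.04 in KO (adjusted p = 4.393e-05). Tmem97, a sterol-binding protein of the endoplasmic reticulum, stood at 0.08 ± 0.05 in CARM1i (adjusted p = 0.3209) and 0.07 ± 0.05 in KO (adjusted p = 0.3505) and passed in neither. Of its 50-base words, 20.8% occur in another annotated gene.

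Set directly against each other, CARM1i and KO differed in 8 of the 28 members, 7 higher and 1 lower in CARM1i, where 23.6% of all genes passed in either direction, 12.1% higher and 11.5% lower. The share of members that passed is thus near that of all genes. Among the enzymes, Hmgcs1 was 1.20-fold higher in CARM1i than in KO (0.26 ± 0.05, limma, adjusted p = 0.0005629), Pmvk 1.28-fold (0.36 ± 0.08, adjusted p = 0.003715), Sqle 1.11-fold (0.14 ± 0.03, adjusted p = 0.003952) and Cyp51 1.14-fold (0.19 ± 0.05, adjusted p = 0.008051; lost without CARM1i replicate 1, adjusted p = 0.05659, and without the trend, 0.09391). Insig1 was 1.20-fold higher (0.26 ± 0.05, adjusted p = 0.0007067) and Stard4 1.14-fold (0.19 ± 0.04, adjusted p = 0.0006705). Lbr had the largest difference, 1.33-fold higher in CARM1i (0.41 ± 0.04, adjusted p = 2.947e-07). Insig2 was the only member of the 28 that passed in the other direction (-0.18 ± 0.06, adjusted p = 0.04713), and its call ended without KO replicate 1 or 3, CARM1i replicate 1 or 2, or WT replicate 1 or 2. It also ended with edgeR (adjusted p = 0.05162), DESeq2 (0.05037), limma without the trend (0.1279), a fit of only the compared groups (0.0573) and the replicate block (0.0744). Without CARM1i replicate 3, the lowest of its group over the members, 11 members passed, with Idi1 (0.18, adjusted p = 0.007708) and Lss (0.17, adjusted p = 0.003855) higher and Ggps1 (-0.13, adjusted p = 0.04472) lower in CARM1i. For several of the members that did not pass the 95% interval of the difference was narrow. It was -0.03 to 0.12 for Msmo1, -0.05 to 0.11 for Sc5d, -0.09 to 0.03 for Scap and -0.07 to 0.06 for Mbtps1. For Tm7sf2 it was -0.35 to 0.35 and for Fdps -0.14 to 0.62, so these intervals were wide. The mitosis genes were all higher in CARM1i than in KO, 10 of 10, by a median of 0.82.

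Genes around the pathway were grouped in 5 lists, whose counts stand against 10.5% of all genes called higher and 8.59% lower in CARM1i, and 21.4% higher and 20.5% lower in KO. SREBP targets of fatty acid synthesis rose in 8 of 11 cases in CARM1i and 7 of 11 in KO, with medians of 0.22 in CARM1i and 0.16 in KO. Fasn, fatty acid synthase, rose by 0.30 ± 0.03 in each, to 20362 ± 231 in CARM1i and 20304 ± 489 in KO, against 16501 ± 179.9 in WT. Elovl6, which elongates its product, measured 1944, 1822 and 1828 in CARM1i, 1538, 1558 and 1589 in KO and 1285, 1243 and 1427 in WT, in the order seen for Hmgcs1 and Insig1, and was higher in CARM1i than in KO (0.26 ± 0.05, limma, adjusted p = 0.001124). Acly, which supplies acetyl-CoA, rose by 0.22 in CARM1i and 0.27 in KO, and Scd1, a desaturase, by 0.35 in CARM1i and 0.31 in KO. Srebf1, the gene of the related factor, stood at 0.04 ± 0.04 in CARM1i (adjusted p = 0.5794) and 0.07 ± 0.04 in KO (adjusted p = 0.1541).

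Genes of cholesterol storage and movement inside the cell had another order. In CARM1i 3 of 12 rose and in KO 8 of 12. Between the treated groups, 6 of the 12 were lower in CARM1i than in KO, with 1 higher. Over all genes, 11.5% were lower and 12.1% higher in CARM1i than in KO. Nceh1, a cholesteryl ester hydrolase, measured 1276, 1217 and 1528 in CARM1i, 1655, 1771 and 1821 in KO, and 882, 929.8 and 906 in WT. It rose by 0.56 ± 0.07 in CARM1i (limma, adjusted p = 1.137e-05) and 0.95 ± 0.07 in KO (adjusted p = 2.547e-09), and CARM1i was below KO (-0.39 ± 0.07, adjusted p = 0.0003155). Npc2, which hands cholesterol out of the lysosome, rose by 0.31 in CARM1i and 0.47 in KO, and Lipa, the lysosomal lipase, by 0.15 in CARM1i and 0.42 in KO. CARM1i was below KO for both (-0.17 ± 0.03, adjusted p = 0.0005268 for Npc2; -0.27 ± 0.03, adjusted p = 1.56e-05 for Lipa). Osbp, an oxysterol-binding protein, was the gene higher in CARM1i than in KO (0.14 ± 0.04, adjusted p = 0.01537).

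LXR is the receptor pair that responds to oxysterols when sterol is plentiful, and of 6 receptor and target genes 1 rose and 1 fell in CARM1i, 1 rose and 3 fell in KO. With 6 genes, these counts are read against 10.5% higher and 8.59% lower in CARM1i and 21.4% higher and 20.5% lower in KO over all genes. Abca1, the cholesterol exporter, measured 1134, 1078 and 800.4 in CARM1i, 546, 398 and 512 in KO, and 1083, 1108 and 1119 in WT. It fell by 1.20 on the log2 scale in KO (limma, adjusted p = 1.061e-07), overlapped WT in CARM1i (-0.15 ± 0.11, adjusted p = 0.3947) and was 2.06-fold higher in CARM1i than in KO (adjusted p = 2.111e-06). Mylip, a ubiquitin ligase induced by LXR, had the same order, with 608 ± 58.9 in CARM1i, 459 ± 43.8 in KO and 642 ± 49.6 in WT. Abcg1, at low counts, fell in both, by 0.90 ± 0.26 in CARM1i (adjusted p = 0.02243) and 1.74 ± 0.26 in KO (adjusted p = 3.472e-05) on the log2 scale. Nr1h2, an LXR gene, rose in KO (0.26 ± 0.05), and Lpcat3 rose in CARM1i (0.15 ± 0.05). The largest log2 estimates in the list, 0.87 in CARM1i and 0.93 in KO, did not pass.

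Genes of the branches that lead from farnesyl and geranylgeranyl diphosphate away from sterols made up another list. Of its 13 genes, none rose and 1 fell in CARM1i, where 19.1% of all genes passed, and 1 rose and 4 fell in KO, where 41.9% did, with medians of -0.06 in CARM1i and -0.07 in KO. Pggt1b, a geranylgeranyl transferase subunit, fell by 0.18 ± 0.05 in CARM1i (limma, adjusted p = 0.02079), and Pdss1, which builds the side chain of coenzyme Q, fell by 0.59 ± 0.11 in KO (adjusted p = 0.0003021). Rabggtb (-0.24 ± 0.04) and Fnta (-0.20 ± 0.05) also fell in KO. Of 8 genes of sterol sensing and enzyme turnover at the endoplasmic reticulum, none passed in CARM1i, and Erlin2 (0.18 ± 0.05) and Rnf139 (0.21 ± 0.05) rose in KO, where 21.4% of all genes rose. In CARM1i the lowest adjusted p of these 8 was 0.2014 (Rnf145).

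**Figure D4:**
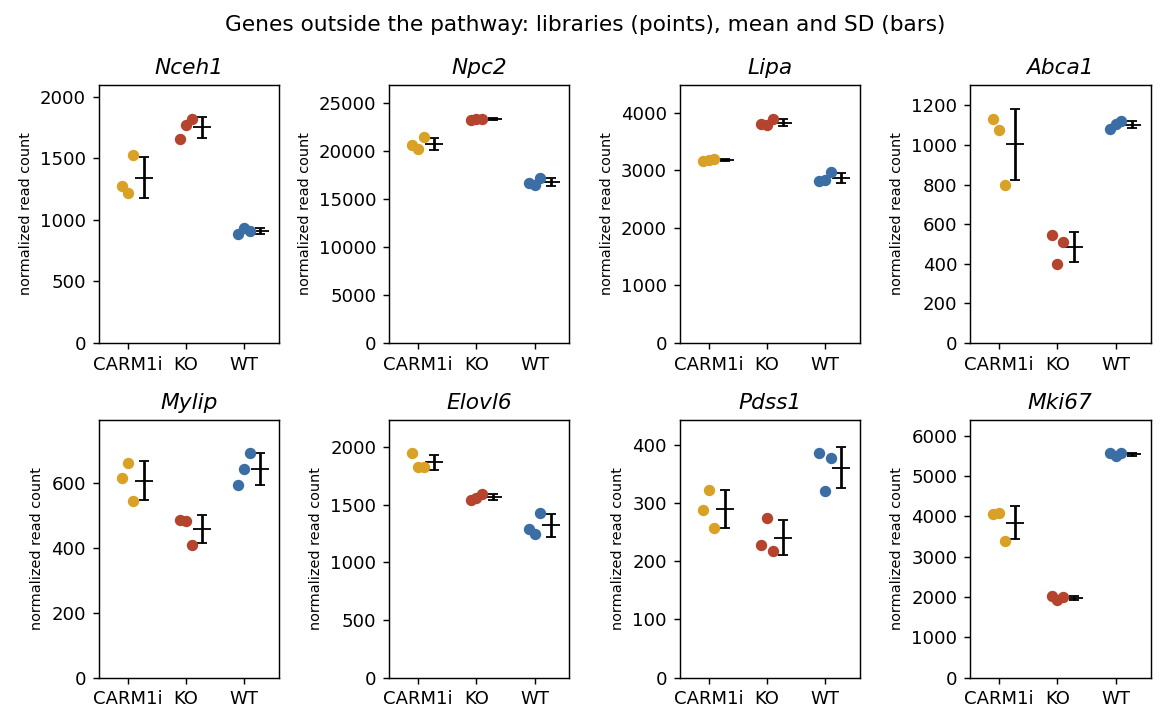
Normalized read count of 8 genes outside the pathway in each library (points) with the mean and SD of each group (bars), n = 3, groups CARM1i, KO and WT from left to right. Nceh1, Npc2 and Lipa are highest in KO, Abca1 and Mylip lowest in KO, Elovl6 highest in CARM1i, and the mitosis gene Mki67 lowest in KO, as is Pdss1 on average, where KO and CARM1i overlap.

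Per kilobase of annotated exon, the members ranged widely in level. In CARM1i the highest were Insig1 (2426 normalized counts per kilobase), Scap (2220.0), Hmgcs1 (2018) and Cyp51 (2005). In KO the same genes led, at 2027 for Insig1, 2265 for Scap, 1681 for Hmgcs1 and 1756 for Cyp51, and in WT they stood at 1326 for Insig1, 1835 for Scap, 1183 for Hmgcs1 and 1265 for Cyp51. Scap was thus the highest member in KO and WT and Insig1 in CARM1i. Of the enzymes, Tm7sf2 (66 in CARM1i, 66.3 in KO, 32.7 in WT) and Dhcr7 (73.3 in CARM1i, 75.4 in KO, 47.2 in WT) were among the lowest, with Fdps lower still (39.1 in CARM1i, 32.7 in KO, 24.5 in WT). The Fdps level is uncertain, since 26.2% of its 50-base words occur in other genes and 1124 of its exon bases overlap genes on its strand. These lengths join all annotated isoforms, which lowers the value of genes with long rare ones. Counts of Acat2 are uncertain because 39.1% of its 50-base words also occur in Acat3, which averaged 48.5 ± 15.9 in CARM1i, 41.7 ± 1.56 in KO and 50.2 ± 13 in WT, and 17.7% of those of Idi1 occur in other annotated genes. Exons of other genes lie on the opposite strand of 18.3% of the exon bases of Fdft1, 13.2% of those of Scap, 12.1% of those of Hmgcs1, 9.24% of those of Lbr and 9.22% of those of Idi1, and with the strand setting not given, reads of those genes may be counted with these.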

How the data were processed

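Messenger RNA of 9 libraries (3 CARM1i, 3 KO, 3 WT) was sequenced with a stranded kit, per the labels. Tools listed in the submitters' processing notes are TopHat2 (2.0.10), HTSeq (0.6.0) and DESeq (1.18.0), with build mm10. Which annotation and strand setting were used for counting is not stated in those notes, so reads of antisense genes may be mixed. The authors deposited a normalized signal per gene: read counts divided by a size factor per library. All values (100%) were whole multiples of 1 read, within 1e-06 of a read, which returned size factors of 0.925 to 1.16 and the reads themselves. The same check was run on each of the 9 libraries. Gene IDs were matched, without version, to GENCODE names for 16413 of 16428 rows.

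limma 3.58.1 (R 4.3.3) with a mean-variance trend was run on log2(value + 1); this scale understates the changes of low genes. The 14560 genes with a mean of at least 10 were tested in 1 fit of the 3 groups, with Benjamini-Hochberg adjustment across them and a threshold of 0.05. Levels are normalized counts. Errors are SD for means and SE for log2 fold changes, and intervals are 95%. The fit was tested on simulated data. Alternatives were edgeR 4.0.16 (quasi-likelihood) and DESeq2 1.42.0 on the recovered reads, other filters, scalings, pseudocounts and thresholds, the replicate block, and fits without each library.

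The members and lists were chosen with earlier results of these data known. Named genes are the members, up to 3 genes of each other list by smallest adjusted p in each comparison with WT, and those nearest to the members' profile. Not every gene picked this way is reported here. Osbp, Srebf1 and Mki67 were named after their values were seen.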

Additional observations from a re-analysis of the deposited data

How the results depend on the processing

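Counts of members called in either direction kept within 1.5 times of those reported under every alternative run. They ran from 18 (limma without the intensity trend) to 24 (quantile normalization) for CARM1i against WT, from 21 to 25 for KO against WT and from 6 to 11 for CARM1i against KO; leaving out single libraries gave 19 to 22, 22 to 25 and 6 to 11 for the 3 comparisons in that order. With edgeR 22, 24 and 7 members passed, and with DESeq2 22, 23 and 7. The few members called lower did move. In CARM1i against KO their count was 1 as reported and 0 to 2 as single libraries were left out, and 0 with edgeR and DESeq2. In CARM1i against WT it went from 0 to 1 with quantile normalization and on rescaling to a common total. Over all genes, CARM1i against WT gave 1668 calls at an adjusted p under 0.01 and 1797 without the trend, in place of 2784, and CARM1i against KO gave 2155 at that p, in place of 3436. No member changed sign against WT. In CARM1i against KO, 10 members that did not pass changed sign as single libraries were left out, with log2 ranges of -0.0343 to 0.0122 for Acat2, -0.1022 to 0.0051 for Dhcr7, -0.025 to 0.0533 for Ebp, -0.0043 to 0.0859 for Hsd17b7, -0.0161 to 0.0155 for Mbtps1, -0.0046 to 0.0952 for Mbtps2, -0.0074 to 0.0693 for Sc5d, -0.0464 to 0.0218 for Srebf2, -0.0915 to 0.0789 for Tm7sf2 and -0.0462 to 0.0616 for Tmem97. Ebp also did with quantile normalization (-0.0185); the cause was not tested. Same-numbered libraries did not deviate together (r of -0.09 to 0.03 over 9 pairs, none over 0.1). With the replicate block 22, 22 and 7 members passed in CARM1i against WT, KO against WT and CARM1i against KO, with Ebp (adjusted p = 0.06197) and Mvk (0.05804) lost in KO and Insig2 (0.0744) lost in CARM1i against KO; over all genes 2553, 5865 and 3156 passed. The SE of a log2 fold change was 0.18 for Fdps and 0.16 for Tm7sf2, against 0.03 for Sqle.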

Other observations

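Outside the members, the genes whose level over the 9 libraries was nearest to the mean profile of the 28 members, among 10451 genes with a mean of at least 100, included Scd1 (Pearson r = 0.991), Emilin2 (0.991), Fasn (0.980), Ppfia1 (0.976) and Mfge8 (0.976), while the median r over all 10451 was -0.00095. The values share libraries and size factors and are a description. Genes picked by this likeness lean the same way as most members by choice, so their p-values are no separate evidence. Emilin2, an extracellular glycoprotein, measured 6880.0, 6879 and 6775 in CARM1i, 6717, 6513 and 6477 in KO, and 5042, 5095 and 5333 in WT, a rise of 0.41 ± 0.03 in CARM1i and 0.35 ± 0.03 in KO (limma, adjusted p = 1.082e-07 in CARM1i and 6.806e-08 in KO). Mfge8, a secreted protein that bridges dying cells to phagocytes, averaged 7772 ± 38.4 in CARM1i, 7863 ± 113 in KO and 6853 ± 82 in WT. Within the list, Lss (r = 0.995) and Idi1 (0.991) lay nearest to the members' own mean and Lbr (-0.541) and Insig2 (0.529) farthest. Each member is itself part of that mean, which lifts its r, so these values do not compare directly with those of other genes.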
